A study of Mus musculus with 9 samples.

Results

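Gria1, Gria2, Gria3 and Gria4, the subunit genes of the AMPA receptors, and Gabra2, Gabra3 and Gabra4, alpha subunit genes of the GABA-A receptors, were followed in mouse mammary adipose stromal cells across nulliparity, lactation and involution. These 7 genes, of 19930 measured, were chosen by their log2 signals on the same arrays, compared between the stages, with the large differences of Gria4 and Gabra3 already known. Their values are therefore a description with no test. Each was measured by 1 probe set that the array annotation assigns to exactly 1 gene symbol.

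The study asked how the adipose stroma of the mammary gland differs between reproductive stages, as part of work on breast cancers that arise around pregnancy. Adipose stromal cells (ASCs), the mixed cells obtained by digesting fat pad tissue, which the study describes as stem cells, preadipocytes, adipocytes and other stroma, were measured on 9 microarrays (Affymetrix Mouse Gene 1.0 ST), whose probes for a gene are placed along the whole transcript. Group ASC-N held 3 preparations from nulliparous mice of 8 weeks that had not been exposed to males, group ASC-L held 3 from mice at day 5 of lactation, and group ASC-I held 3 from mice at day 3 of involution. All mice were Balb/c females, all stroma was separated by collagenase and hyaluronidase digestion and centrifugation, and no allele or drug differed between the groups. By the study's methods the ASC-L and ASC-I mice were mated at 8 weeks, so they were older at collection than the ASC-N mice. Age and parity therefore cannot be told apart from stage in comparisons with ASC-Ns. The study's methods describe RNA from low passage cultures purified on a column kit, whereas the labels name Trizol and do not mention culture. The titles call the arrays biological replicates, but the mice behind each are not given, so p-values measure only the spread between these preparations, which may be technical in part.

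AMPA receptors are glutamate-gated cation channels assembled as tetramers from the products of Gria1 to Gria4, and they carry fast excitatory transmission between neurons. GABA-A receptors are GABA-gated chloride channels made of 5 subunits, usually alpha and beta subunits with a further subunit such as gamma, and the alpha subunit helps to set where the receptor sits and how it responds to benzodiazepines. Both families are best known from the nervous system, although transcripts of single subunits have been found in many other tissues.

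The sequences upstream of Gria4 and Gabra3 are shown because these genes gave the large differences between stages and differ in the base composition of these windows. Each is the 250 bases before the annotated start in RefSeq (build GRCm38.p6), written 5′ to 3′ on the strand of the gene, which is the minus strand for both. The Gria4 window is chr9:4796235-4796484 and the first Gabra3 window is chrX:72656920-72657169. Capitals mark matches on either strand to an E-box (CANNTG) in Gria4 and to a TATA box (TATAAA) in Gabra3.
Gria4: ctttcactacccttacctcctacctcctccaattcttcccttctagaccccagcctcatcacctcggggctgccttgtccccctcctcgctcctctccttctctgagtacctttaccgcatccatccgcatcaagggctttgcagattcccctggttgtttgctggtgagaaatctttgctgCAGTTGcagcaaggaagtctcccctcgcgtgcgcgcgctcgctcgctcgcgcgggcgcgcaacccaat
Gabra3: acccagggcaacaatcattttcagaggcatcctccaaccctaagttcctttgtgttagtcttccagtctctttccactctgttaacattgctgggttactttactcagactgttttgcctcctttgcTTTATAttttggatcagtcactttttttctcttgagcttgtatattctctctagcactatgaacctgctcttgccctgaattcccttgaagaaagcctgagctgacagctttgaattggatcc

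The Gria4 window had a GC content of 58.8% with 16 CpG dinucleotides, and the Gabra3 window had a GC content of 42.4% with 0. A CpG was present in 92.1% of 32851 mouse promoter windows of the same length, at a median of 6. The E-box letters matched in 66.2% of those windows and the TATA letters in 12.4%. Neither window held a GC box (GGGCGG), a nuclear receptor half-site (AGGTCA) or a GAS element (TTCNNNGAA), whose letters occurred in 32.7%, 14% and 7.02% of windows. A second annotated Gabra3 start, whose window overlaps the first, shared the TATA match and also had 0 CpG dinucleotides. Of the other subunit genes, Gria2, Gabra2 and Gabra4 had windows with 19, 18 and 12 CpG dinucleotides and a GC content of 64.8%, 70% and 61.2%. Windows were matched for 5 of the 7 genes, and those of Gria1 and Gria3 were not used here. A match of letters is a description of the window and not a binding site.

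Signals are log2 values normalized between arrays, so a difference of 1 is a 2-fold change, and levels are compared only within a gene. Arrays of the same stage correlated across genes at r = 0.956 to 0.990, for 3 arrays in each of the 3 stages. Markers of the labelled cells were present in every array, with Col1a1, a chain of type I collagen, at 12.63 to 13.36 and the preadipocyte receptor Pdgfra at 8.86 to 11.44. Of 10 adipocyte markers measured, the hormone genes Adipoq and Lep stayed at 3.82 to 4.41 and 3.88 to 4.31, below the lower quartile of all genes, which was 4.76 to 4.89 across the arrays. The other 8 lay above it in every array, among them the fatty acid binding protein gene Fabp4 at 7.50 to 8.45 and the regulator Pparg at 6.63 to 8.26. The second ASC-L array and the second ASC-I array (replicate 2 of each stage) stood apart by their epithelial genes, with means over 14 luminal markers of 9.25 and 7.87. Their means over 10 endothelial markers were also high, at 6.96 and 6.46, as was that of ASC-N replicate 1, at 6.76. The results for Gria3, Gria4 and Gabra3 are therefore also given without replicate 2 of ASC-Ls and ASC-Is.

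**Figure D1:**
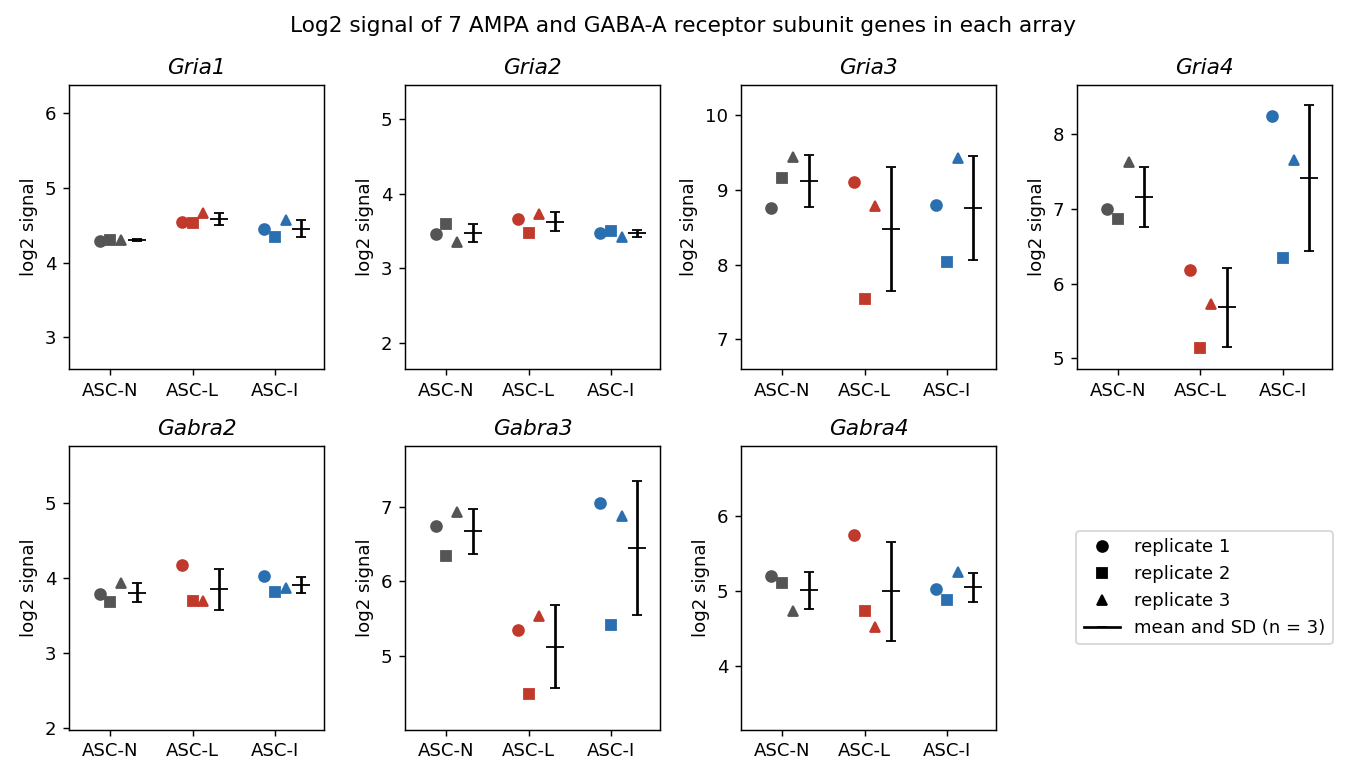
Log2 signal (y axis) of each of the 7 subunit genes in each array, by stage, with points for arrays, bars for the mean and SD of a stage (n = 3), and every panel spanning the same number of log2 units. The ASC-L points of Gria4 and Gabra3 lie below all ASC-N points, whereas the points of Gria2, Gabra2 and Gabra4 overlap between all stages.

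Gria4 encodes the GluA4 subunit, which in the brain is prominent in fast-spiking interneurons and the cerebellum. Its log2 signal was 6.99, 6.86 and 7.62 in the ASC-N arrays, 6.19, 5.13 and 5.72 in the ASC-L arrays and 8.24, 6.34 and 7.65 in the ASC-I arrays. All 3 ASC-L values lay below all ASC-N values and all ASC-I values, and the closest were ASC-L replicate 1 and ASC-I replicate 2, 0.15 apart. The stage means were 7.16 ± 0.41, 5.68 ± 0.53 and 7.41 ± 0.97 in ASC-Ns, ASC-Ls and ASC-Is (SD, n = 3 each). The ASC-L mean of Gria4 was thus 2.79-fold below the ASC-N mean (log2 difference -1.48, SE 0.47) and the ASC-I mean was 3.32-fold above the ASC-L mean (1.73, SE 0.47). Between ASC-Is and ASC-Ns the difference was 0.25 (SE 0.47), within the spread of the arrays. Without replicate 2 of both stages these differences were -1.20, 1.99 and 0.79. The last of them then met the limits used here, an unadjusted p under 0.05 with at least a 1.5-fold change. For the subunit genes, which were chosen on these values, a call by the limits is a description and not a test.

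Gabra3 encodes the alpha 3 subunit, found in the brain in monoaminergic neurons and the reticular thalamus. ASC-N arrays had 6.74, 6.34 and 6.93, ASC-L arrays 5.35, 4.49 and 5.53, and ASC-I arrays 7.04, 5.42 and 6.88. The ASC-L values were all below the ASC-N values, by 0.80 or more, while ASC-I replicate 2 lay between ASC-L replicates 1 and 3, so that ASC-Is and ASC-Ls overlapped in 1 array. Means were 6.67 ± 0.30 in ASC-Ns, 5.13 ± 0.56 in ASC-Ls and 6.45 ± 0.90 in ASC-Is (SD, n = 3 each). The ASC-L mean lay 2.91-fold below that of ASC-Ns (log2 difference -1.54, SE 0.43) and the ASC-I mean 2.50-fold above that of ASC-Ls (1.32, SE 0.43), and ASC-Is differed from ASC-Ns by -0.22 (SE 0.43). Without replicate 2 of ASC-Ls and ASC-Is the same differences were -1.23, 1.52 and 0.29. The difference between ASC-Is and ASC-Ls no longer met the limits used here without ASC-L replicate 2, without ASC-I replicate 1 or without ASC-I replicate 3, where it was 1.00, 1.02 and 1.10.

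Arrays of ASC-Is and ASC-Ls with the same replicate number deviated together from their stage means across genes, so these differences can also be read number by number. Gria4 was higher in the ASC-I array by 2.05, 1.21 and 1.93 log2 units for numbers 1, 2 and 3. Gabra3 was higher in the ASC-I array by 1.69, 0.93 and 1.35 units. Both genes were thus higher in ASC-Is in 3 of 3 pairs. For Gria4 any pairing would give this count, since all its ASC-I values lay above all its ASC-L values. The pairs reuse the values on which the genes were chosen, so all counts of pairs are a description only. Gria1 was lower in the ASC-I array in 3 of 3 pairs, by 0.10, 0.19 and 0.10 units, and the other 4 genes were higher in some pairs and lower in others.

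Gria3 encodes the GluA3 subunit, which pairs with GluA2 in many cortical receptors. Its signal was 8.75, 9.17 and 9.44 in ASC-Ns, 9.11, 7.54 and 8.78 in ASC-Ls and 8.80, 8.04 and 9.43 in ASC-Is. The ASC-L and ASC-I values spread around the ASC-N values, apart from replicate 2 of both stages, the lowest arrays of all 9. The difference was -0.64 for ASC-Ls against ASC-Ns, 0.28 for ASC-Is against ASC-Ls and -0.36 for ASC-Is against ASC-Ns (SE 0.45), and without replicate 2 of both stages it was -0.17 and 0.17 in the first 2 comparisons and close to 0 in the third.

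Gria1 encodes GluA1, the subunit that is delivered to synapses during plasticity. Its signal was 4.29, 4.31 and 4.31 in ASC-Ns, 4.55, 4.53 and 4.67 in ASC-Ls and 4.45, 4.34 and 4.58 in ASC-Is. All ASC-L and all ASC-I arrays lay above the ASC-N arrays, by at least 0.22 and 0.03, while ASC-Is and ASC-Ls overlapped. The differences were small, at 0.28 for ASC-Ls against ASC-Ns and 0.15 for ASC-Is against ASC-Ns (SE 0.10), and every value was below the lower quartile of all genes.

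Gria2 encodes GluA2, whose RNA-edited pore keeps calcium out of the channel. It ranged from 3.48 to 3.73 in ASC-Ls and 3.42 to 3.51 in ASC-Is, against 3.36 to 3.60 in ASC-Ns. Its differences were 0.15 for ASC-Ls against ASC-Ns and -0.16 for ASC-Is against ASC-Ls (SE 0.11). In size both exceeded its SDs of 0.12, 0.13 and 0.04 in ASC-Ns, ASC-Ls and ASC-Is, but its arrays overlapped between all stages. Gabra2, the alpha 2 subunit of limbic neurons, ranged from 3.69 to 4.17 in ASC-Ls and 3.82 to 4.03 in ASC-Is, against 3.69 to 3.94 in ASC-Ns. Gabra4, the alpha 4 subunit of extrasynaptic receptors, ranged from 4.51 to 5.75 in ASC-Ls and 4.88 to 5.26 in ASC-Is, against 4.73 to 5.20 in ASC-Ns. The largest difference between stage means of these alpha genes was 0.10, for Gabra2 in ASC-Is against ASC-Ns. The order of stage means in Gabra2 and Gabra4 therefore rests on differences smaller than the spread within a stage.

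**Figure D2:**
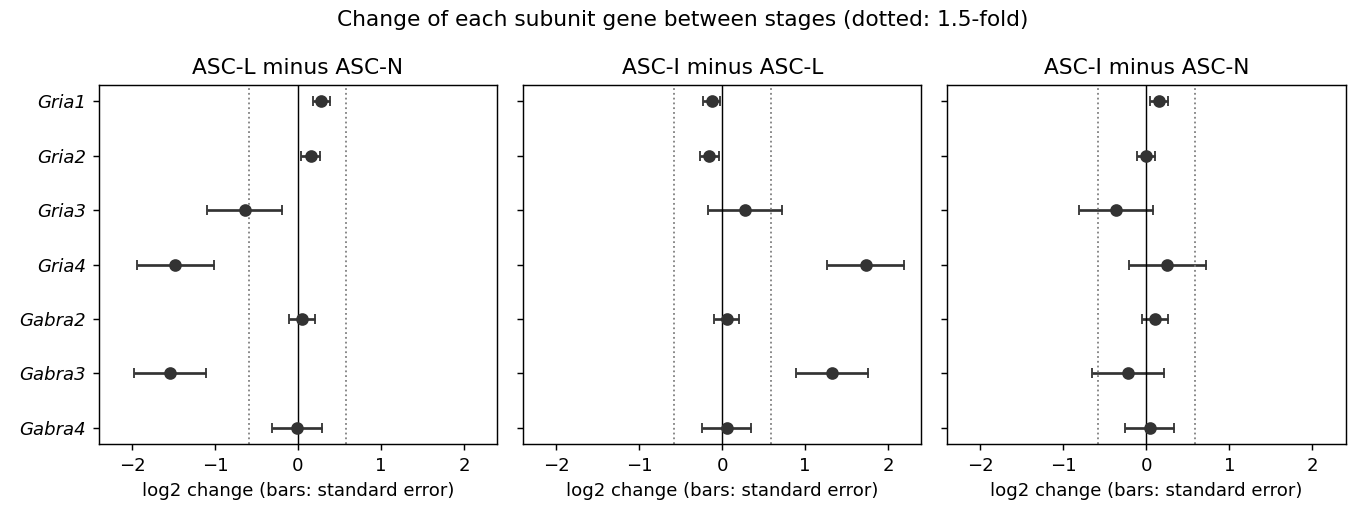
Log2 change of the 7 subunit genes (points) with its standard error (bars) between stage means and dotted lines at 1.5-fold, for ASC-L minus ASC-N, ASC-I minus ASC-L and ASC-I minus ASC-N. Gria4 and Gabra3 lie at -1.48 and -1.54 for ASC-L minus ASC-N and at 1.73 and 1.32 for ASC-I minus ASC-L, and the other 5 genes lie nearer to 0.

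By the limits used here, 2 of the 7 subunit genes had a lower ASC-L mean than ASC-N mean, where 0.627% of all 19930 genes passed. In ASC-Is against ASC-Ls 2 of 7 were higher, where 0.482% of genes passed, and in ASC-Is against ASC-Ns 0 of 7 passed, where 0.251% did. The groups of arrays did not overlap for 3 of 7 genes in ASC-Ls against ASC-Ns (8.59% of all genes), for 1 of 7 in ASC-Is against ASC-Ls (5.56%) and for 1 of 7 in ASC-Is against ASC-Ns (6.54%). After Benjamini-Hochberg adjustment over all genes, 0 of 19930 genes (0%) had an adjusted p under 0.05 in limma in any comparison, with 726, 359 and 311 genes at an unadjusted p under 0.05. Since the genes were selected on these contrasts, nothing is read from their counts, and the ASC-L arrays serve both of the first 2 comparisons. The median difference of the 7 genes was -0.01, 0.06 and 0.04 in the 3 comparisons, against 0.01, -0.01 and 0.00 for all genes.

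Gria4 on chromosome 9 and Gabra3 on chromosome X varied together over the 9 arrays, with Pearson r = 0.949 and Spearman rho = 0.933. The correlation was 0.921 over the 7 arrays left after leaving out replicate 2 of ASC-Ls and replicate 1 of ASC-Is, those farthest from the median of Gria4, and 0.923 for deviations from the stage means. The arrays share stage and cell makeup, so these coefficients are a description only. With the 7 subunit genes left out, 4164 genes had an SD of at least 0.3 over the arrays, and the 5 of them most like Gria4 were Tnfsf18 (r = 0.929), a ligand of the tumor necrosis factor family, Etfbkmt (0.928), a mitochondrial lysine methyltransferase, Adamts1 (0.909), a matrix protease, Ndrg3 (0.908) and Rassf2 (0.908). Of the same genes, those most like Gabra3 were Hgf (0.959), hepatocyte growth factor, Igf1 (0.938), insulin-like growth factor 1, Pid1 (0.922), Naprt (0.913), an enzyme of NAD salvage, and Brd8dc (0.913). The stage means of Hgf were 9.92, 8.78 and 9.68 in ASC-Ns, ASC-Ls and ASC-Is, and those of Igf1 were 7.26, 6.32 and 7.12.

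Lists of 111 other genes of AMPA and GABA-A receptor assembly, related receptors and transmitter handling held 100 measured genes, of which 1 fell in ASC-Ls against ASC-Ns (1%, against 0.627% of all genes) by the same limits. In ASC-Is 0 changed against ASC-Ls (0%, against 0.482%) and 2 fell against ASC-Ns (2%, against 0.251%). These are counts of 2 or fewer genes. None had an adjusted p under 0.998 in limma over all genes.

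The gene that fell in both ASC-Ls and ASC-Is was Abat, which encodes the mitochondrial transaminase that degrades GABA. It had 5.84, 5.69 and 6.08 in the ASC-L arrays, against 6.18, 6.90 and 6.82 in the ASC-N arrays, a difference of -0.76 (SE 0.23, unadjusted p = 0.00845 in limma), and the groups did not overlap. ASC-I arrays had 5.79, 5.84 and 6.34, of which 1 overlapped the ASC-Ns, with a difference of -0.65 from ASC-Ns (SE 0.23, unadjusted p = 0.0193 in limma). Under array weights neither difference passed, at -0.52 and -0.42, and the second was also lost without ASC-N replicate 2 or 3 or ASC-I replicate 1 or 2, at -0.51 to -0.57.

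Slc1a3, the glutamate transporter of astrocytes, had 5.37, 4.95 and 5.31 in ASC-Is, against 6.51, 5.59 and 5.68 in ASC-Ns, and fell by 0.72 on the log2 scale (SE 0.23, unadjusted p = 0.0138 in limma). In ASC-Ls it had 5.32, 5.30 and 5.46, and the difference of -0.57 from ASC-Ns was just under the fold limit. It passed after quantile normalization (-0.59), with array weights (-0.81) and without ASC-N replicate 2 (-0.73) or 3 (-0.69). ASC-N replicate 1 was the high array, and without it the ASC-I difference was -0.43 and did not pass. It did not pass without ASC-I replicate 2 either, at -0.59.

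**Figure D3:**
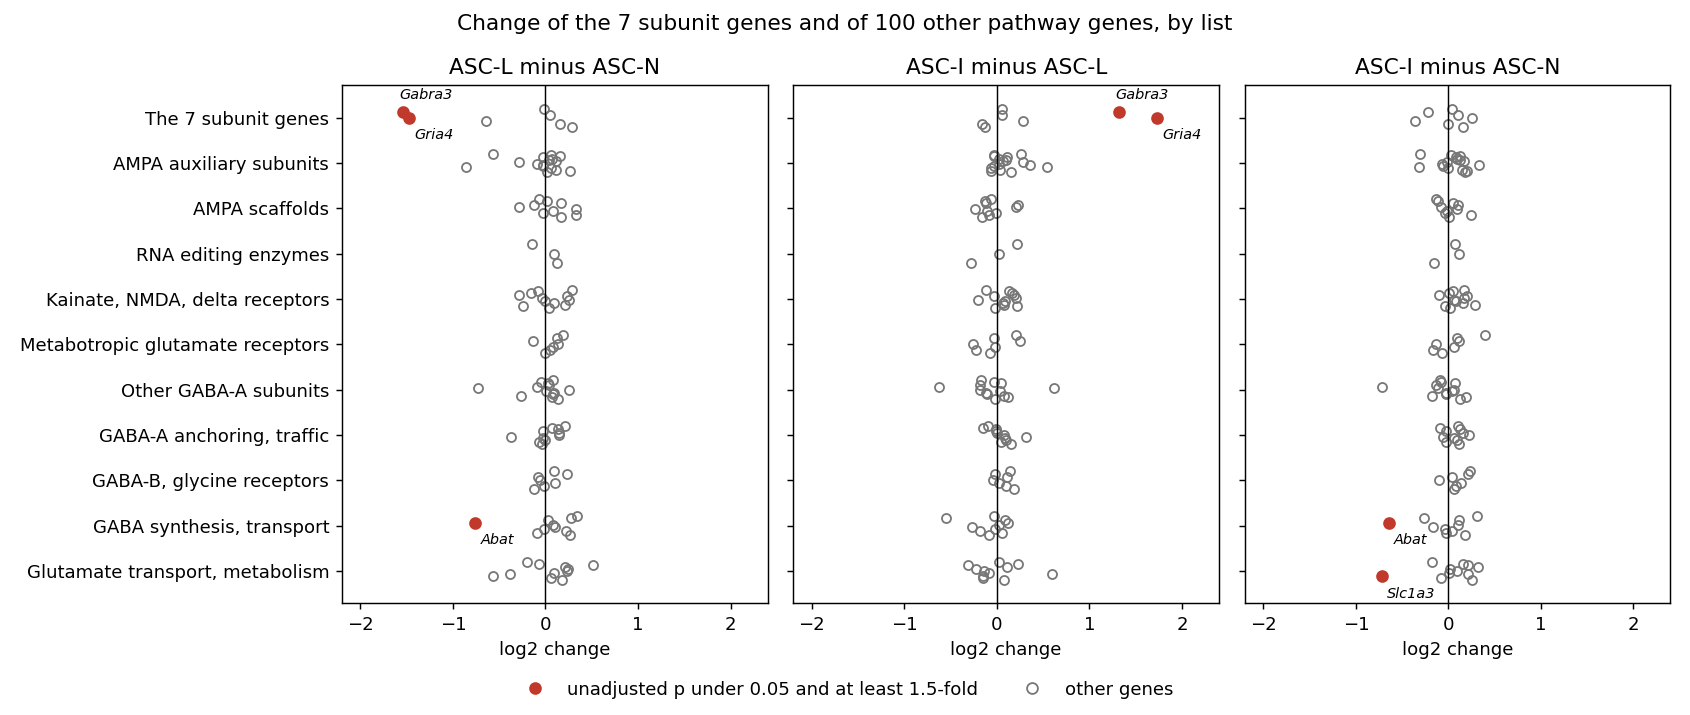
Log2 change (x axis) of the 7 subunit genes and of 100 other receptor and transmitter genes, with 1 point per gene and 1 row per list, filled where the unadjusted p was under 0.05 with at least a 1.5-fold change. Gria4 and Gabra3 lie apart in ASC-L minus ASC-N and ASC-I minus ASC-L, and Abat and Slc1a3 are filled in ASC-I minus ASC-N.

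The auxiliary proteins that AMPA receptors need for traffic and gating, 16 of 16 measured, gave 0 genes past the limits in each comparison. Their largest differences in ASC-Ls against ASC-Ns were -0.85 (SE 0.86) for Cacng7, a transmembrane regulator of AMPA receptors, and -0.57 (SE 0.35) for Cpt1c, which binds GluA1. Cacng7 was 9.12, 6.16 and 6.35 in the ASC-L arrays, against 8.52, 7.41 and 8.26 in the ASC-N arrays, so 1 ASC-L array was above all ASC-Ns, and without that array the difference was -1.81 and passed. None of 10 scaffold genes passed, with Dlg2 at 0.33 (SE 0.18) and Grip2 at 0.33 (SE 0.20). The 3 RNA editing enzymes, which include the editors of the GluA2 pore, differed by -0.14 to 0.13. Of 12 kainate, NMDA and delta receptor genes and 7 metabotropic glutamate receptor genes, 0 passed, and the most distant in ASC-Ls against ASC-Ns were Grid1 at 0.29 (SE 0.15), Grin2d at -0.29 (SE 0.16), Grm8 at 0.19 (SE 0.28) and Grm6 at -0.14 (SE 0.17). Grm8 differed by 0.40 in ASC-Is against ASC-Ns (SE 0.28), and passed there without ASC-I replicate 1, at 0.66.

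Among 13 other GABA-A receptor subunit genes 0 passed in any comparison. Of further alpha subunits, Gabra5 was at 4.18 to 4.71 over the 9 arrays, and Gabra6 differed by 0.07 in ASC-Ls against ASC-Ns, 0.12 in ASC-Is against ASC-Ls and 0.19 in ASC-Is against ASC-Ns. Gabrp, the pi subunit known from epithelia such as the mammary gland and uterus, was named after its values were seen. Its signal was 5.70, 5.35 and 4.62 in the ASC-N arrays, 4.52, 6.29 and 4.59 in the ASC-L arrays and 4.65, 4.42 and 4.45 in the ASC-I arrays, and its highest value was that of ASC-L replicate 2 and its lowest that of ASC-I replicate 2, the arrays with the high epithelial markers.

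Subunit genes of the GABA-A receptors lie in clusters, and the neighbours of Gabra3 on chromosome X are Gabre and Gabrq, with Magea10 between Gabre and Gabra3. Gabre, the epsilon subunit, had 6.56, 5.62 and 5.84 in the ASC-N arrays, 5.64, 5.32 and 4.87 in the ASC-L arrays and 6.27, 5.29 and 6.11 in the ASC-I arrays. Its differences of -0.73 for ASC-Ls against ASC-Ns and 0.61 for ASC-Is against ASC-Ls (SE 0.33) did not pass. With the replicate number as a block the difference of ASC-Is from ASC-Ls had the same size and passed (SE 0.22, unadjusted p = 0.0225 in limma). That block was fitted over all 9 arrays, although same-numbered ASC-N arrays did not all deviate together with those of the other stages. Over all alternatives to the fit, that of ASC-Ls from ASC-Ns passed in 8 of 18, at -0.73 to -0.98 where it passed, and that of ASC-Is from ASC-Ls in 3 of 18. Gabrq, the theta subunit, differed by 0.04 and -0.18 (SE 0.18).

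On chromosome 5 the order is Gabrg1, Gabra2, Cox7b2, Gabra4 and Gabrb1. The gamma 1 gene Gabrg1 differed by 0.10 in ASC-Ls against ASC-Ns and -0.12 in ASC-Is against ASC-Ls (SE 0.11). Gabrb1, the beta 1 subunit, had 7.18, 3.87 and 5.57 in ASC-Ls and 6.14, 4.30 and 6.42 in ASC-Is, against 5.86, 5.45 and 6.10 in ASC-Ns. Its highest and lowest arrays were both ASC-Ls, and the differences of -0.26 for ASC-Ls and -0.18 for ASC-Is from ASC-Ns (SE 0.80) were small beside that spread.

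The anchoring and traffic genes of GABA-A receptors, 11 measured, gave 0 past the limits, with Nlgn2, a neuroligin of inhibitory synapses, at -0.37 (SE 0.23) and Ubqln1 at 0.21 (SE 0.19) in ASC-Ls against ASC-Ns. Of 7 GABA-B and glycine receptor genes 0 passed, with Glra4 at 0.23 (SE 0.12) and Gabbr1 at -0.13 (SE 0.16). The GABA synthesis enzymes Gad1 and Gad2 stayed within 5.11 to 5.75 and 4.58 to 4.99 over all arrays.

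Cell type markers were read beside the subunit genes, since in a bulk preparation fewer cells of a type and less RNA per cell cannot be told apart. Neuron markers, 14 of 14 measured, had a mean of 5.38 to 5.59 in ASC-Ls and 5.43 to 5.51 in ASC-Is, against 5.40 to 5.52 in ASC-Ns. Single neuron markers ranged from Elavl4 at 4.06 to 4.30 and Snap25 at 4.39 to 4.88 up to Gap43 at 6.33 to 7.43 and Uchl1 at 7.09 to 8.12. Of these 14 genes 1, the tubulin Tubb3, fell past the limits used here in ASC-Ls against ASC-Ns, where 0.627% of all genes passed. In that comparison 10 of the 14 differences were above 0 and 4 below. Schwann cell markers, 9 of 12 measured, gave 0 past the limits, with means of 5.46 to 5.93 in ASC-Ls and 5.57 to 5.91 in ASC-Is, against 5.30 to 6.20 in ASC-Ns. Gabra4 and the neuron list were both highest in ASC-L replicate 1, and they correlated at r = 0.901 over the 9 arrays. The neuron list correlated at r = 0.0842 with Gria3, -0.0211 with Gria4 and -0.0989 with Gabra3. With Gria1, Gria2 and Gabra2 it correlated at r = -0.122, 0.128 and 0.466.

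Luminal epithelial markers had means of 6.09, 9.25 and 6.31 in ASC-Ls and 6.03, 7.87 and 5.83 in ASC-Is, against 7.08, 7.02 and 5.78 in ASC-Ns. In ASC-Ls against ASC-Ns 2 of 14 genes rose past the limits used here, where 0.627% of all genes passed. All 14 differences were above 0 in this comparison, with a median of 0.62. Basal markers had the same high arrays, at 8.84 for replicate 2 of ASC-Ls and 7.36 for replicate 2 of ASC-Is. Gria3, Gria4 and Gabra3 were each lowest of their stage in these arrays. Over the 9 arrays, which share stage and cell makeup, the luminal mean correlated at r = -0.911 with Gria3, -0.686 with Gria4 and -0.714 with Gabra3, and the mean of 7 milk protein genes at -0.928, -0.714 and -0.808. Without both arrays the ASC-L luminal means were 6.09 and 6.31. They lay below ASC-N replicates 1 and 2, at 7.08 and 7.02, and above ASC-N replicate 3, at 5.78. The differences of Gria4 and Gabra3 between ASC-Ls and ASC-Ns were then the -1.20 and -1.23 given above. Whether epithelial content has a part in these differences was not tested.

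Macrophage markers, 13 of 14 measured, had means of 6.77, 6.61 and 6.55 in ASC-Ls and 8.95, 7.25 and 8.03 in ASC-Is, against 8.19, 8.04 and 6.27 in ASC-Ns. By the limits used here 9 of these genes rose in ASC-Is against ASC-Ls, where 0.482% of all genes passed. Only 1, the receptor Csf1r, fell past the limits in ASC-Ls against ASC-Ns, where 0.627% passed. The differences between stage means had 1 direction over the whole list. For ASC-Is against ASC-Ls all 13 lay above 0 (median 1.53), and for ASC-Ls against ASC-Ns all 13 lay below 0 (median -0.80). The macrophage mean correlated over the 9 arrays at r = 0.635 with Gria4, 0.595 with Gabra3 and 0.169 with Gria3. ASC-I replicate 1 had the highest macrophage mean and the highest Gria4 and Gabra3 signals of the 9 arrays, 8.24 and 7.04. ASC-N replicate 3 had the lowest macrophage mean, and its Gria4 and Gabra3 signals, 7.62 and 6.93, were the highest among ASC-Ns. Preadipocyte and fibroblast markers, 11 of 12 measured, had means of 8.44, 7.80 and 8.49 in ASC-Ls and 8.21, 8.30 and 8.75 in ASC-Is, against 8.98, 8.38 and 8.68 in ASC-Ns. By the same limits 4 of them, Pdgfra, Osr1, Meox2 and Gdf10, fell in ASC-Ls against ASC-Ns. In that comparison 8 of the 11 differences were below 0 and 3 above. The mean of this list correlated at r = 0.70 with Gria3, 0.482 with Gria4 and 0.67 with Gabra3. The endothelial mean correlated at -0.833, -0.584 and -0.542 with the same genes. The part of these cell types in the signals of the subunit genes was not tested.

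**Figure D4:**
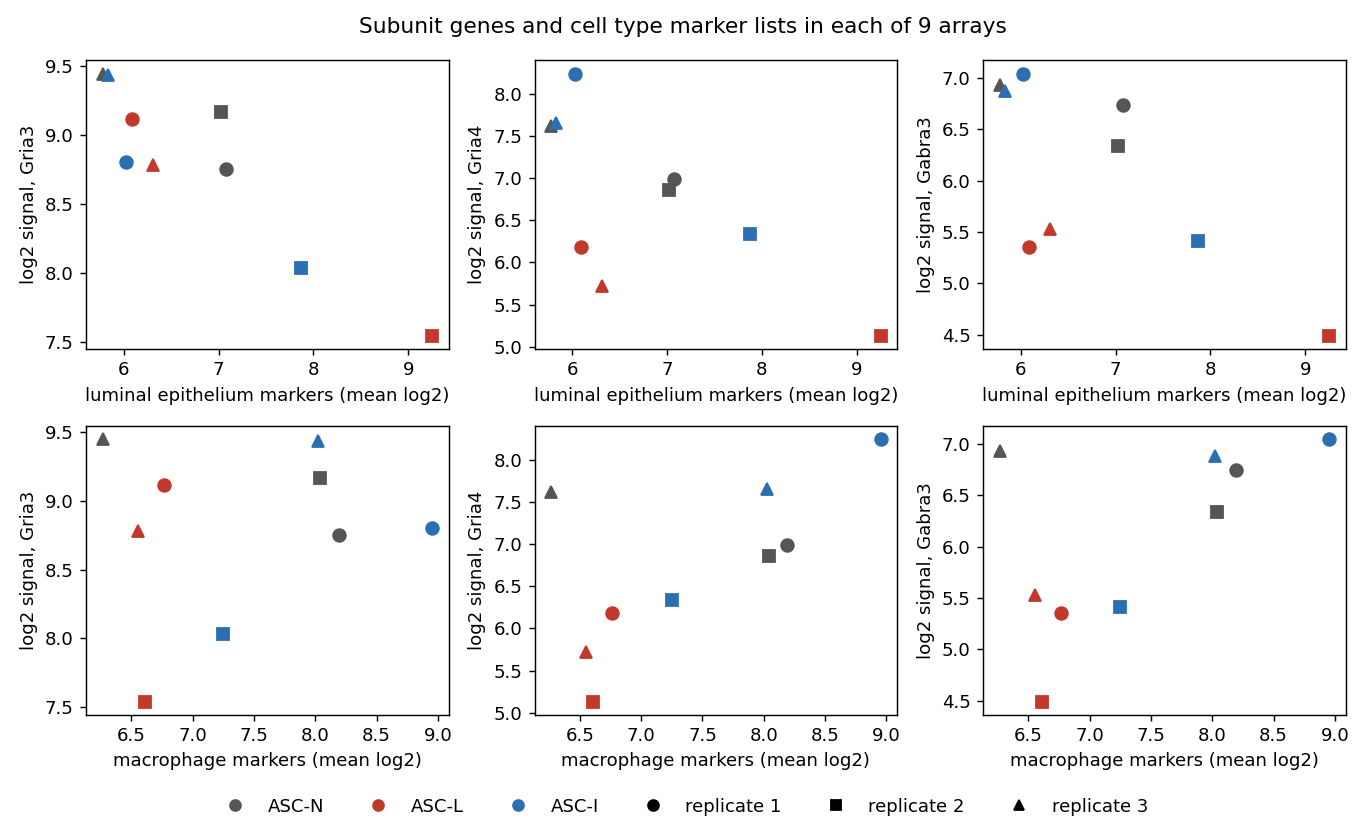
Log2 signal of Gria3, Gria4 and Gabra3 (y axes) against the mean log2 signal of luminal epithelium markers (upper row) and macrophage markers (lower row), with 1 point per array, color for stage and shape for replicate number. ASC-L replicate 2, at a luminal mean of 9.25, has the lowest value of each of the 3 genes. ASC-N replicate 3 pairs the lowest macrophage mean, 6.27, with a Gria4 signal of 7.62. ASC-I replicate 1 pairs the highest macrophage mean, 8.95, with the highest Gria4 signal, 8.24.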

How the data were processed

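Total RNA of 9 adipose stromal preparations was hybridized to Affymetrix Mouse Gene 1.0 ST arrays. The deposited values are log2 signals per probe set, which the authors normalized between arrays. The methods name robust multi-array average for this step, whereas the submitters' processing notes name GCRMA and limma. Versions are not given in the sources used here. No further normalization was applied.

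Of 28348 probe sets, the platform annotation gave 21762 exactly 1 symbol, 1621 several and 4965 none. Only the first were kept and averaged per gene, giving 19930 genes. The RefSeq table (GRCm38.p6) held 21671 of the 21762 probe sets by Entrez identifier and changed 0 symbols.

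Linear models with a mean per stage were fitted over all 9 arrays with limma 3.58.1 in R 4.3.3 (lmFit and eBayes, prior degrees of freedom 2.91). The fit was also run on simulated arrays with known changes. Their noise was independent between arrays, unlike that of these data, so the run checks the calculation and not the error rates here. A gene passed where its unadjusted p was below 0.05 and its fold change 1.5 or more, the limits used here. P-values were also adjusted by Benjamini-Hochberg over all genes. With 3 arrays per stage, the number of arrays limits the precision.

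The subunit genes and all lists were chosen with earlier results of these data known. Named are the 7 subunit genes, pathway genes that passed (up to 4 per list and comparison), otherwise the 2 of a list with the largest change in ASC-Ls against ASC-Ns, subunit genes next to them on the chromosome, and the 5 genes most correlated with Gria4 or Gabra3. Gabra5, Gabra6, Gabrp, Gad1 and Gad2 were named outside these rules, and single marker genes were named to describe their lists.

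Deviations from the stage means correlated between arrays of the same replicate number at r = 0.47, 0.73 and 0.46 for ASC-Is and ASC-Ls, so the numbers were taken to pair these arrays. The replicate block was fitted over all 9 arrays, so it also used the numbers of the ASC-Ns, which did not all pair in this way. With the replicate block, 207 genes passed in ASC-Is against ASC-Ls, compared with 96 without it, and the subunit genes that passed were still 2.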

Additional observations from a re-analysis of the deposited data

How the results depend on the processing

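Gria4 and Gabra3 kept their directions in ASC-Ls against ASC-Ns and in ASC-Is against ASC-Ls in 18 of 18 alternatives each. The difference of Gria4 ranged from -1.73 to -1.20 and from 1.31 to 2.27 in these comparisons, and that of Gabra3 from -1.75 to -1.23 and from 1.00 to 1.84. In ASC-Is against ASC-Ns both changed sign, at -0.16 to 0.79 for Gria4 and -0.52 to 0.29 for Gabra3. The alternatives were quantile normalization, array weights, an intensity trend, only the 2 stages compared, filters on low signal and low variation, single probe sets, the replicate block and leaving out arrays. Several of them cannot change the difference of a gene with 1 probe set. They are the intensity trend, the fit of only 2 stages, the filters, single probe sets and the replicate block. Leaving out an array of the stage outside the comparison cannot change it either. The remaining alternatives reuse the arrays on which both genes were chosen, so the kept directions are a description only.

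In ASC-Ls against ASC-Ns, 125 genes passed, but 311 with array weights and 295 with the replicate block. Leaving out 1 array gave 80 to 404, with 80 without ASC-N replicate 1, 352 without ASC-N replicate 3, 404 without ASC-L replicate 1 and 230 without ASC-L replicate 3. In ASC-Is against ASC-Ls, 96 passed, but 207 with the replicate block and 194 without replicate 2 of both stages, and 36 to 331 without 1 array, with 331 without ASC-L replicate 1, 316 without ASC-I replicate 2, 36 without ASC-I replicate 1 and 61 without ASC-I replicate 3. In ASC-Is against ASC-Ns, 50 passed, but 187 with array weights, 90 with the replicate block and 144 without replicate 2 of ASC-Ls and ASC-Is, and 32 to 221 without 1 array, with 32 without ASC-N replicate 1, 221 without ASC-N replicate 3, 83 without ASC-I replicate 2 and 92 without ASC-I replicate 3.

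Of the subunit genes, 2 passed in ASC-Ls against ASC-Ns without any 1 array, 1 to 2 in ASC-Is against ASC-Ls and 0 in ASC-Is against ASC-Ns, where 1, Gria4, passed without replicate 2 of ASC-Ls and ASC-Is. These calls describe genes that were chosen on the same contrasts and give no support to their differences. Of the 100 other pathway genes, 1 passed in ASC-Ls against ASC-Ns, but 3 after quantile normalization and 2 each with array weights, with only the 2 stages compared, with the replicate block and without replicate 2 of ASC-Ls and ASC-Is. In ASC-Is against ASC-Ls 0 passed, but 1, Gabre, with the replicate block and without replicate 2 of both stages, and in ASC-Is against ASC-Ns 2 passed, but 0 without replicate 2 of ASC-Ls and ASC-Is. Leaving out 1 array gave 1 to 5, 0 to 2 and 0 to 3 of these genes. Apart from ASC-Is against ASC-Ls, same-numbered arrays did not all deviate together, at r = -0.08, 0.40 and 0.45 for ASC-Ls and ASC-Ns, where 4 of 6 arrays were closest to their own number, and 0.07, 0.43 and 0.50 for ASC-Is and ASC-Ns, where 5 of 6 were. The replicate block changed no call of a subunit gene. The cause of these shifts was not tested. Whether low signals such as those of Gria1, Gria2 and Gabra2 lie above background was not tested either.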
